A study of Mus musculus with 6 samples.

Results

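This account concerns 31 genes of the peroxisome: its biogenesis factors, the transporters of its membrane and its enzymes of lipid metabolism. They were taken as a group for their role in the organelle, with earlier results of these data known, so the group as a whole was not tested. Each was read from a probe set that the array annotation pairs with exactly 1 gene symbol, the brightest over the 6 arrays. All 31 were found, each with a single such probe set, among 30142 genes named in this way.

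Peroxisomes are organelles that shorten very long-chain and branched fatty acids, which mitochondria cannot take up directly, and that begin the synthesis of ether lipids such as plasmalogens. Proteins called peroxins build the membrane, import folded enzymes from the cytosol and recycle the import receptors. In fat cells, peroxisomes lie close to lipid droplets, and several of their genes are known targets of the PPAR family of nuclear receptors.

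The arrays measured RNA of inguinal subcutaneous white fat from male C57BL/6 mice aged 2 months, with 3 arrays labelled KO and 3 labelled WT, each described as a biological replicate. WT mice were TFG f/f, so both groups carried floxed Tfg alleles. KO mice were TFG f/f; Adipoq-ERT2Cre, in which the adiponectin promoter drives a tamoxifen-dependent Cre recombinase in fat cells and not in the other cells of the pad. Both groups received tamoxifen intraperitoneally for 5 days and were sampled 2 weeks later. TFG organizes the sites where cargo leaves the endoplasmic reticulum, and the comparison asks which transcripts differ in fat when its gene is deleted in adipocytes.

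The label was checked first on Tfg itself. Under the WT label its log2 signal read 7.97, 7.94 and 7.91, and under the KO label 7.99, 8.21 and 8.03, so it was not lower there. It differed by 0.14 ± 0.11 (SE; limma, adjusted p = 0.345), with a 2-sided exact permutation p of 0.1, which is the lowest value possible with 3 arrays in each group. Which exons this probe set reads is not given, and the words KO-labelled and WT-labelled are used below for that reason. KO 2 stood apart, with correlations of 0.9603 and 0.9645 to the other KO-labelled arrays, against 0.986 between those and 0.984 to 0.986 among WT-labelled arrays. The adipocyte marker Fabp4 stood far above the array median on every array, at 16.52 ± 1.84 (SD, n = 3) under the WT label and 19.04 ± 0.46 under the KO label. Of the 12 adipocyte markers Adig and Lep read below the array median on all 3 WT-labelled arrays, and Lep on KO 3 as well. In bulk tissue, more cells of a type and more RNA per cell cannot be told apart.

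The scale of the arrays matters for every value below. The median probe set stood 0.37 lower on the KO-labelled arrays (a median change of -0.37 on the log2 scale), while 18 housekeeping genes stood 1.06 higher on average. Those genes were far from uniform, from 0.11 for Gusb to 2.33 for Rab7, and 10 of the 18 were themselves called higher. Changes are given on the deposited log2 scale, and values relative to the housekeeping mean are given beside them where stated.

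Of the 31 peroxisomal genes 8 rose and 0 fell on the KO-labelled arrays as deposited. Relative to the housekeeping mean, the split was 4 higher and 15 lower, and over all 65956 probe sets 853 higher and 58420 lower. The 8 genes that rose as deposited were Ehhadh, Phyh, Scp2, Abcd2, Ech1, Pex16, Abcd3 and Pex13. Their adjusted p lay between 0.0354 and 0.0424 (limma, Benjamini-Hochberg over all 65956 probe sets). They made up 25.8% of the 31 genes. In the same direction limma called 5.32% of all probe sets and 10.7% of 19046 protein-coding genes, and in the opposite direction 15.6% and 10.1%. The median change of the 31 genes was 0.38, against -0.37 over all probe sets and -0.18 over protein-coding genes, and it was -0.69 relative to the housekeeping mean.

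In 21 of the 31 genes (67.7%) all 3 KO-labelled values lay above all 3 WT-labelled values, and in 1 gene, Acox2, they lay below. Over all probe sets these shares were 11.1% and 44.9%, and over protein-coding genes 23.4% and 40.9%. The remaining 9 genes overlapped between the groups.

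When each array was left out in turn, the calls of the 8 genes that rose were lost in 4 of the 6 cases. Their estimates could not change sign, because all their KO-labelled values lay above all their WT-labelled values. Ehhadh lay between 2.34 and 2.75, Phyh between 1.64 and 2.44, Scp2 between 1.65 and 2.33 and Pex13 between 0.68 and 0.87. When WT 1, WT 2, WT 3 or KO 3 was left out, 0 of the 31 genes and 0 probe sets in all passed limma's threshold, the smallest adjusted p in the whole table being 0.0997, 0.0824, 0.114 and 0.0624. At an unadjusted p under 0.05 there were then 14, 15, 13 and 15 of the 31 genes, and 23757, 25102, 21579 and 28697 probe sets. Without KO 1 limma called 10 of the 31 genes higher, and over all probe sets 3469 higher and 10697 lower. Without KO 2 it called 8 of the 31 genes higher, and 3046 probe sets higher and 6921 lower. Of the 8 genes called on all arrays, Abcd2 alone missed the threshold without KO 1 (adjusted p = 0.0648) and without KO 2 (adjusted p = 0.0644). KO 2 gave the highest KO-labelled value in 21 of the 31 genes, and in all 8 that rose. Its housekeeping mean was also the highest, at 10.33 against 9.607 on KO 1 and 9.665 on KO 3. Its array median, 6.47, was the lowest. How often KO 2 was highest over all probe sets was not determined.

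**Figure D1:**
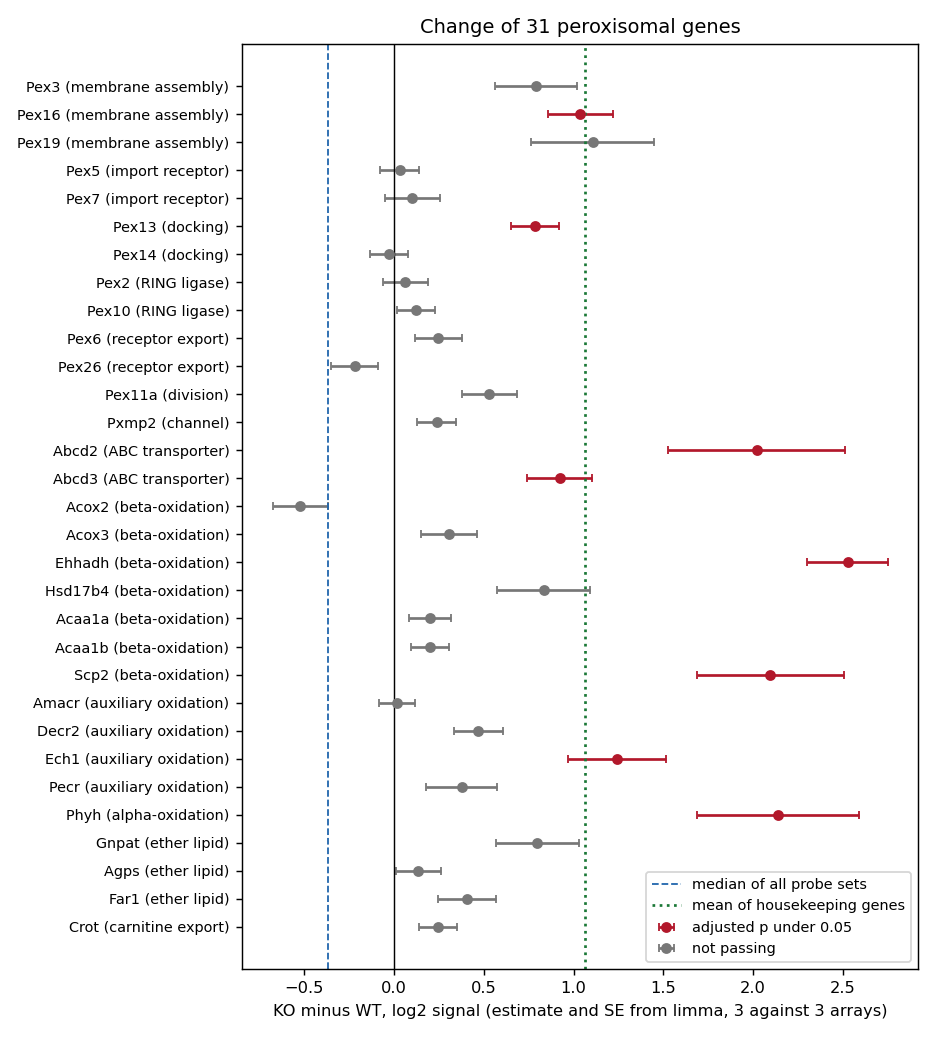
The change of each of the 31 genes, KO-labelled minus WT-labelled in log2 signal (x axis), with bars for the SE from limma and the role of each gene in parentheses (y axis). The 8 genes in red passed; the dashed line marks the median of all probe sets (-0.37) and the dotted line the housekeeping mean (1.06), to the left of which 25 of the 31 genes lie.

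Among enzymes of peroxisomal beta-oxidation, Ehhadh showed the largest change of all 31 genes. It encodes the L-bifunctional protein, which carries out the hydratase and dehydrogenase steps and is a classical PPAR alpha target. It read 6.06, 5.86 and 6.07 in log2 signal under the WT label and 8.08, 8.90 and 8.59 under the KO label. Every KO-labelled value was thus above 8, and the WT-labelled values lay close together. The difference was 2.53 ± 0.22 (SE), or 5.76-fold (adjusted p = 0.0354), and 1.46 relative to the housekeeping mean.

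Scp2 encodes a thiolase for branched substrates and, from a second start within the gene, the sterol carrier protein 2. Which of these products the probe set reads is not given. The WT-labelled arrays read 7.95, 8.47 and 7.88 and the KO-labelled arrays 9.73, 11.10 and 9.76. All KO-labelled values were higher, and KO 2 stood above KO 1 and KO 3. Scp2 rose by 2.10 ± 0.41 (SE), or 4.28-fold (adjusted p = 0.0361), and by 1.65 without KO 2.

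The other genes of the same pathway changed less or not detectably. Hsd17b4 encodes the D-bifunctional protein, the parallel enzyme to that of Ehhadh. It read 8.38, 8.48 and 8.24 on WT-labelled and 9.19, 9.70 and 8.71 on KO-labelled arrays, without overlap, and its difference of 0.83 ± 0.26 (SE) did not pass (adjusted p = 0.0597). The classical thiolase genes Acaa1a and Acaa1b each differed by 0.20, with SE of 0.12 and 0.11, and neither passed (adjusted p = 0.203 and 0.179). These are close paralogs, so the signal of one may include RNA of the other.

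Neither of the oxidase genes in the group, which encode enzymes for branched-chain substrates and bile acid intermediates, passed. Acox2 was the only one of the 31 genes whose groups separated downward. It read 6.80, 6.76 and 7.04 on WT-labelled and 6.53, 6.13 and 6.37 on KO-labelled arrays, a difference of -0.52 ± 0.15 (SE, adjusted p = 0.0542). With each array centred on its median the difference was -0.19 (adjusted p = 0.346). It was called lower with a trended, robust variance prior (adjusted p = 0.0481). Acox3 stood at a difference of 0.31 ± 0.15 (adjusted p = 0.157).

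**Figure D2:**
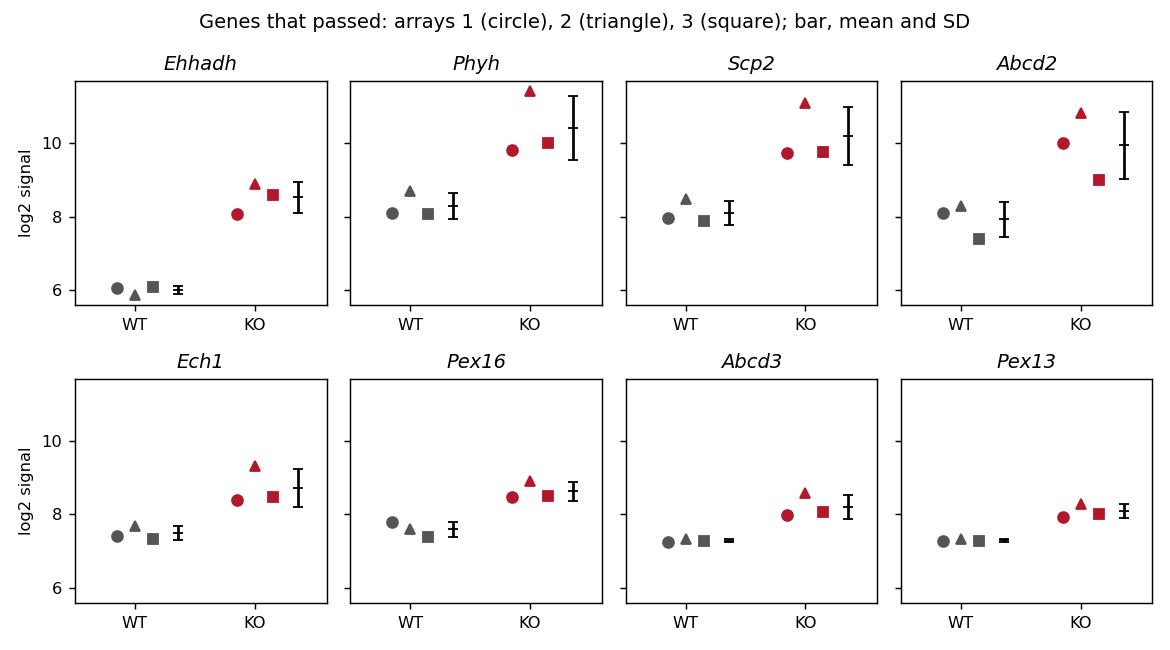
Log2 signal on each array (y axis) for the 8 genes that passed, with WT-labelled arrays in grey and KO-labelled arrays in red (x axis). Symbols give the array number and the bar beside them the mean and SD (n = 3); the groups do not overlap in any panel, and KO 2, the triangle, is the highest KO-labelled array in all 8.

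Phyh encodes phytanoyl-CoA hydroxylase, the first enzyme of alpha-oxidation, which removes a carbon from fatty acids with a methyl branch that blocks beta-oxidation. Its signal was 8.09, 8.69 and 8.06 on WT-labelled and 9.83, 11.42 and 10.01 on KO-labelled arrays. The lowest KO-labelled array was more than 1 log2 unit above the highest WT-labelled array. Phyh rose by 2.14 ± 0.45 (SE), or 4.41-fold (adjusted p = 0.0376), and by 1.64 without KO 2. Amacr, whose racemase passes methyl-branched acids on from alpha- to beta-oxidation, read 5.84, 5.85 and 5.93 against 5.87, 5.93 and 5.87. Its difference of 0.02 ± 0.10 was smaller than its SE and the groups overlapped.

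Of the auxiliary enzymes that handle double bonds, Ech1 rose. It encodes a dienoyl-CoA isomerase found in peroxisomes and mitochondria. The WT-labelled arrays read 7.42, 7.69 and 7.33 and the KO-labelled arrays 8.38, 9.31 and 8.47. The groups did not overlap, and Ech1 rose by 1.24 ± 0.27 (SE), or 2.36-fold (adjusted p = 0.0387). Decr2, the peroxisomal dienoyl-CoA reductase gene, read 7.86, 7.99 and 8.02 against 8.22, 8.52 and 8.54, a difference of 0.47 ± 0.13 that did not pass (adjusted p = 0.0526). Pecr, which encodes an enoyl-CoA reductase, differed by 0.38 ± 0.20 (adjusted p = 0.168), with the KO-labelled values all above the WT-labelled ones.

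Both genes for ABC transporters, which carry acyl-CoA esters into the organelle, rose as deposited. Abcd2 favours very long-chain and polyunsaturated substrates. It read 8.11, 8.28 and 7.38 on WT-labelled and 10.01, 10.82 and 9.0 on KO-labelled arrays, so KO 3 was the lowest of its group here. It rose by 2.02 ± 0.49 (SE), or 4.06-fold (adjusted p = 0.0424). Abcd3 takes branched and long-chain dicarboxylic substrates. Its values of 7.25, 7.32 and 7.28 were tight on WT-labelled arrays, and it read 7.97, 8.58 and 8.07 on KO-labelled arrays, a rise of 0.92 ± 0.18, or 1.90-fold (adjusted p = 0.0361). Relative to the housekeeping mean Abcd2 was 0.96 higher (adjusted p = 0.0316) while Abcd3 stood at -0.14 (adjusted p = 0.686).

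On the way out of the organelle, Crot encodes the carnitine octanoyltransferase that exports shortened chains. Its values of 7.49, 7.43 and 7.53 against 7.81, 7.73 and 7.64 did not overlap, but the difference of 0.24 ± 0.11 did not pass (adjusted p = 0.121). The channel gene Pxmp2, whose product lets small solutes through the membrane, differed by 0.24 ± 0.11 as well (adjusted p = 0.128).

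Ether lipid synthesis starts with an acyltransferase (Gnpat), continues with alkylglycerone phosphate synthase (Agps) and needs fatty alcohol from a reductase (Far1). None of the 3 genes passed. Gnpat read 7.66, 7.98 and 7.62 on WT-labelled and 8.49, 8.98 and 8.18 on KO-labelled arrays, a difference of 0.80 ± 0.23 (adjusted p = 0.0538). With the replicate number as a block its adjusted p was 0.0447. Agps and Far1 overlapped between the groups, at differences of 0.13 ± 0.13 and 0.41 ± 0.16 (adjusted p = 0.405 and 0.0998).

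**Figure D3:**
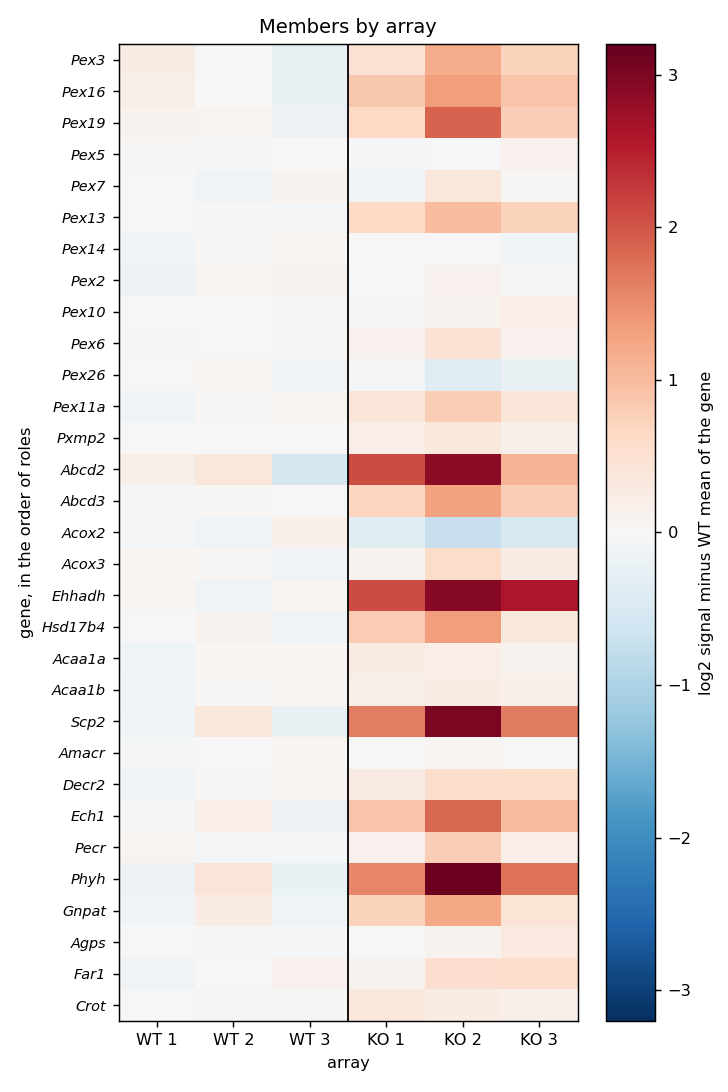
Each of the 31 genes (rows, in the order of their roles) on each of the 6 arrays (columns), as log2 signal minus the WT-labelled mean of that gene. The strongest red lies in Abcd2, Ehhadh, Scp2 and Phyh on the KO-labelled arrays, most of all on KO 2, while Pex5, Pex14 and Amacr stay near white on all 6 arrays.

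The 12 peroxin genes had a median change of 0.19, and 2 of them rose, against 6 of the 19 other genes, whose median was 0.41. Limma called 5.32% of all probe sets and 10.7% of protein-coding genes higher. Relative to the housekeeping mean the medians were -0.88 for the peroxin genes and -0.66 for the others. The difference between the counts of 2 and 6 was not tested. Among the peroxins that build the membrane, Pex19 and Pex16 had the largest estimates of the 12 as deposited. Pex3 stood at 0.79, as did Pex13 of the import machinery. Relative to the housekeeping mean Pex19 stood at 0.04, Pex16 at -0.03 and Pex3 at -0.27. Pex16, which receives membrane proteins on the endoplasmic reticulum and the peroxisome, read 7.78, 7.60 and 7.38 on WT-labelled and 8.46, 8.92 and 8.49 on KO-labelled arrays. The groups were separate, and Pex16 rose by 1.04 ± 0.18 (SE), or 2.05-fold (adjusted p = 0.0354). Pex3, the membrane docking factor, read 7.40, 7.19 and 6.92 against 7.64, 8.36 and 7.88, a difference of 0.79 ± 0.23 (adjusted p = 0.053). Pex19, the chaperone of these membrane proteins, read 7.85, 7.81 and 7.54 against 8.38, 9.62 and 8.52. Its difference of 1.11 ± 0.34 was larger than that of Pex16 but did not pass (adjusted p = 0.0596), and KO 2 stood more than 1 log2 unit above KO 1 and KO 3. Without KO 2 Pex19 passed (adjusted p = 0.0372).

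Genes of the import machinery differed from each other. Pex13, which forms the pore through which cargo passes, read 7.28, 7.33 and 7.26 on WT-labelled and 7.92, 8.29 and 8.02 on KO-labelled arrays. Its rise of 0.79 ± 0.13, or 1.73-fold, passed (adjusted p = 0.0354). Pex14, its partner in docking the receptors, read 6.68, 6.79 and 6.82 against 6.77, 6.77 and 6.67, an overlapping difference of -0.03 ± 0.11. The receptors that bring cargo to this site overlapped too. Pex5, for enzymes with the common carboxy-terminal signal, read 7.61, 7.55 and 7.59 against 7.54, 7.57 and 7.73. Pex7, for the few enzymes with an amino-terminal signal, of which Phyh is one, differed by 0.10 ± 0.15.

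After delivery the receptors are ubiquitinated by a complex of RING proteins and pulled out again by an ATPase. The RING genes Pex2 and Pex10 overlapped between the groups, at differences of 0.06 ± 0.12 and 0.12 ± 0.11. The ATPase gene Pex6 differed by 0.25 ± 0.13 (adjusted p = 0.178). Pex26, which anchors that ATPase, was the only peroxin other than Pex14 with a negative estimate, at -0.22 ± 0.13 (adjusted p = 0.212). Both estimates turned positive after centring each array on its median, at 0.11 for Pex26 and 0.30 for Pex14.

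Pex11a promotes elongation and division of peroxisomes and is a known PPAR alpha target. It read 6.60, 6.79 and 6.84 on WT-labelled and 7.15, 7.53 and 7.14 on KO-labelled arrays. The groups were separate, and the difference of 0.53 ± 0.15 lay just outside the threshold (adjusted p = 0.0539). In all, 7 genes stood just outside it, with adjusted p between 0.0526 and 0.0597: Pex3, Pex19, Pex11a, Acox2, Hsd17b4, Decr2 and Gnpat.

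The changes did not keep their sign under every scaling. When each array was set against its housekeeping mean, limma called Ehhadh, Phyh, Scp2 and Abcd2 higher, with differences of 1.46, 1.08, 1.03 and 0.96. Ech1 stood at 0.18, Pex16 at -0.03, Abcd3 at -0.14 and Pex13 at -0.28 without passing (adjusted p = 0.608, 0.942, 0.686 and 0.431). On that scale 15 of the 31 genes were called lower, among them Pex5, Pex14, Acox2 and Amacr, and 58420 probe sets of the whole table were called lower and 853 higher. When each array was centred on its median instead, 14 of the 31 genes were called higher and 0 lower. Over all probe sets 5146 were then called higher and 3259 lower, against 3509 and 10282 as deposited. The housekeeping mean lay between 8.75 and 8.88 under the WT label and between 9.61 and 10.33 under the KO label.

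**Figure D4:**
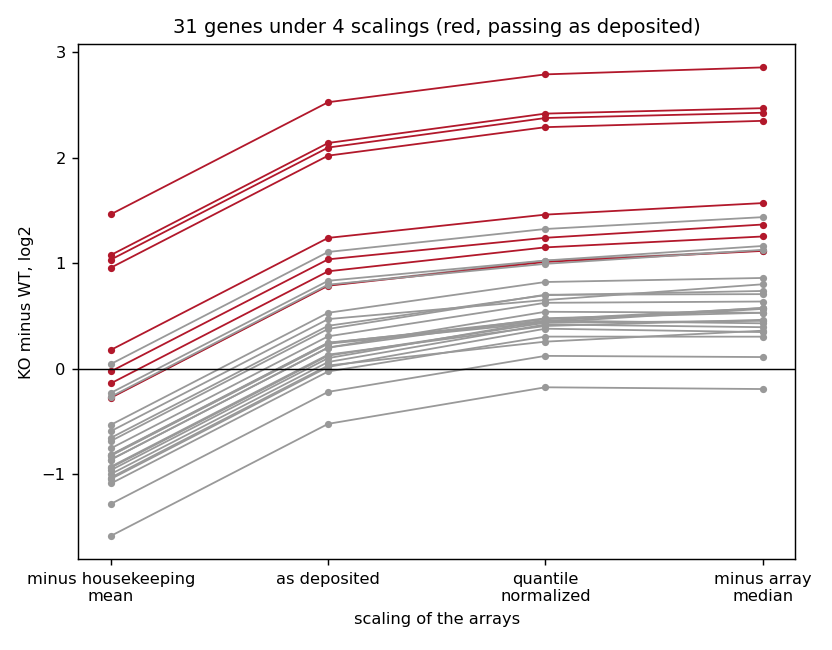
The KO-labelled minus WT-labelled difference of the 31 genes (y axis, log2) under 4 scalings of the arrays (x axis), with a line for each gene, in red for the 8 that passed as deposited. Relative to the housekeeping mean 25 of the 31 lines lie below 0, whereas after centring on the array median only Acox2, at -0.19, does.

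The promoters of 4 genes that rose are printed as examples and need not stand for those of the other genes. The 250 bases before the annotated start are given from RefSeq (GRCm38.p6), 5′ to 3′ on the strand of the gene, with capitals for GC boxes (GGGCGG or CCGCCC) and CCAAT boxes (CCAAT or ATTGG). Ehhadh lies at chr16:21787835-21788084 on the minus strand, Phyh at chr2:4918746-4918995 on the plus strand, Ech1 at chr7:28825088-28825337 on the plus strand and Pex13 at chr11:23665884-23666133 on the minus strand.
Ehhadh: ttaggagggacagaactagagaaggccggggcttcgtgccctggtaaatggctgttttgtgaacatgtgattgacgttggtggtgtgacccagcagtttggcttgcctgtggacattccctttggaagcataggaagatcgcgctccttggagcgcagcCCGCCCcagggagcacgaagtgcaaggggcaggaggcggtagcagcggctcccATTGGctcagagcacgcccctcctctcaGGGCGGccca
Phyh: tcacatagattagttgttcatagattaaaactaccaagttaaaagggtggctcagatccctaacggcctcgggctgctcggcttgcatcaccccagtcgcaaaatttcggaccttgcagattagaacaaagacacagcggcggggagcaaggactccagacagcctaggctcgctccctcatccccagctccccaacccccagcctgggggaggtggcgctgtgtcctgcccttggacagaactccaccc
Ech1: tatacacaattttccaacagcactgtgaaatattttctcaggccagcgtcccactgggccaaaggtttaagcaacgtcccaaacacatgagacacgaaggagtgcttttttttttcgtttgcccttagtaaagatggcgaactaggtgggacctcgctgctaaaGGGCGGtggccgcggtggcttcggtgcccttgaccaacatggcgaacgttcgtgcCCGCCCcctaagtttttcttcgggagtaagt
Pex13: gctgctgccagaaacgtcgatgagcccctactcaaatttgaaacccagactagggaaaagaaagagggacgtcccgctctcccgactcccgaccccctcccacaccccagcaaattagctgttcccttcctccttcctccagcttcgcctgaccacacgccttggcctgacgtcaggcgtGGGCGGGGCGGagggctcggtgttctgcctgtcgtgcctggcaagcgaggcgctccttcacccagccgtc
GC boxes were found in 2 places each in Ehhadh, Ech1 and Pex13, those of Pex13 sharing a base, and in none in Phyh. A window was matched for 25 of the 31 genes, with 30 windows because some genes have several starts. GC boxes were in 60% of these windows and in 32.7% of all 32851 windows of the same length. CCAAT boxes were in 40% and 33.8%, and the TATA motif (TATAAA or TTTATA) in 10% and 12.4%. The nuclear receptor hexamer (AGGTCA or TGACCT) was in 1 of the 30 windows, that of Scp2, and in 14% of all windows. Its direct repeat with 1 base between the copies, searched on both strands and overlapping the hexamer, was in 0 of the 30 and in 0.0335% of all windows. Member windows had a median GC content of 59.4%, against 52.4% of all windows.

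Of a list of 34 further measured genes of the organelle 9 rose and 0 fell, with a median change of 0.40. Relative to the housekeeping mean 4 were called higher and 17 lower. Over all probe sets limma called 5.32% higher and 15.6% lower as deposited. On the housekeeping scale 853 probe sets were called higher and 58420 lower. In 18 of the 34 genes every KO-labelled array was above every WT-labelled array, and in 10 every one was below. This held for 11.1% and 44.9% of all probe sets, and for 23.4% and 40.9% of protein-coding genes. Cat, which encodes the hydrogen peroxide scavenger catalase, had the largest change, from 9.11, 10.82 and 7.83 on WT-labelled to 13.24, 14.60 and 13.17 on KO-labelled arrays. The WT-labelled arrays were far apart from each other, yet below every KO-labelled array, and Cat rose by 4.42 ± 0.80, or 21.4-fold (adjusted p = 0.0355). Without WT 3 the difference was 3.71 and without WT 2 it was 5.20. Ephx2, the soluble epoxide hydrolase gene, rose 7.43-fold (adjusted p = 0.0354). Slc25a17, a carrier of nucleotides and cofactors in the peroxisomal membrane, rose 3.87-fold, the peroxisomal protease gene Lonp2 3.99-fold and the carnitine acetyltransferase gene Crat 2.72-fold (adjusted p = 0.0354, 0.0403 and 0.0354).
The membrane protein gene Pxmp4 rose 2.25-fold, and Fis1 and Mff, which recruit the division machinery to peroxisomes and mitochondria, rose 1.6-fold and 1.86-fold. Against the housekeeping mean, Crat stood at 0.38, Pxmp4 at 0.11, Fis1 at -0.38 and Mff at -0.17, and none of these passed (adjusted p = 0.275, 0.762, 0.282 and 0.631).

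Mitochondrial fatty acid oxidation, which receives the chains that peroxisomes shorten, stood higher in more of its genes. Of 17 measured genes 16 rose and 0 fell, and the median was 2.12 as deposited, or 1.06 after subtraction of the housekeeping mean. The 31 peroxisomal genes stood at 0.38 and -0.69. The difference between the lists was not tested. Acadl rose 13.0-fold, Hadha 7.52-fold, Hadhb 5.17-fold and Slc25a20, whose product carries acylcarnitines, 4.50-fold.

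**Figure D5:**
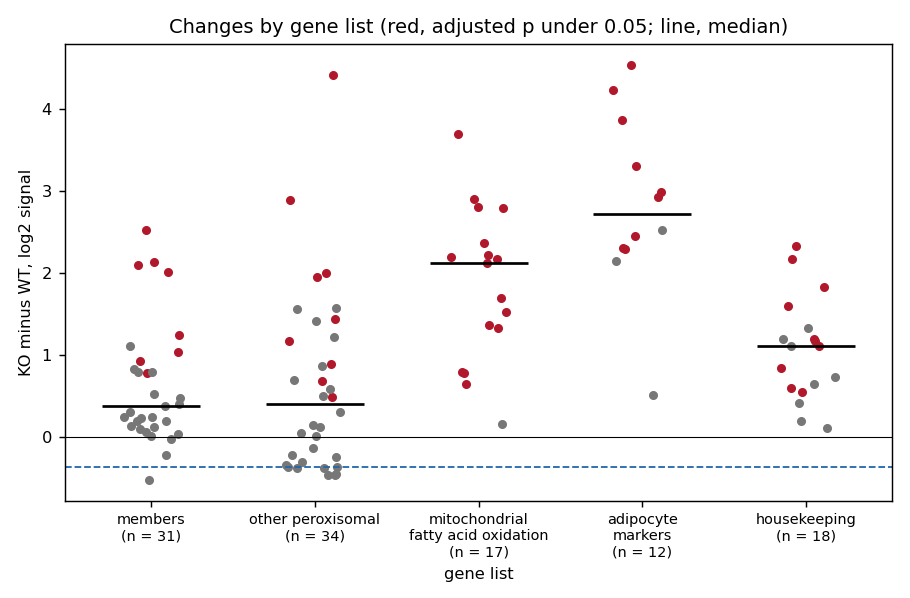
Change of each gene (points, KO-labelled minus WT-labelled log2 signal) in the 31 peroxisomal genes and 4 other lists, in red where it passed, with a line at the median of each list. The dashed line is the median of all probe sets (-0.37); the 31 genes centre on 0.38, below the housekeeping list (1.11) and the mitochondrial list (2.12).

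Of the nuclear receptors and coactivators known to control peroxisomal genes, Pparg rose, from 8.14, 8.12 and 7.45 on WT-labelled to 11.01, 12.45 and 11.22 on KO-labelled arrays. The change was 3.66 ± 0.42 (adjusted p = 0.0354). Ppara, the receptor best known for inducing peroxisomal oxidation in liver, read 6.78, 7.19 and 7.03 against 7.50, 8.25 and 7.58, a difference of 0.78 ± 0.24 that did not pass (adjusted p = 0.0582). The coactivator genes Ppargc1a and Ppargc1b stood at 0.37 and 0.33, and the receptor genes Rxra and Nr1h3 at 0.25 and 0.18, without passing. Relative to the housekeeping mean Pparg was 2.59 higher (adjusted p = 0.00115), whereas the others turned negative. Rxra at -0.81 and Nr1h3 at -0.89 were then called lower (adjusted p = 0.0308 and 0.0222), and Ppara at -0.29, Ppargc1a at -0.69 and Ppargc1b at -0.73 did not pass.

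Markers of the cell types in the pad moved beside these genes. Of 12 adipocyte markers 9 rose, and their mean log2 signal lay between 8.66 and 10.30 on WT-labelled and between 11.89 and 13.23 on KO-labelled arrays. Of 9 endothelial markers 8 rose, with means of 7.09 to 7.30 and of 8.54 to 9.18. Macrophage markers rose in 2 of 10 genes (means 7.44 to 7.59 and 7.77 to 8.03), fibroblast markers in 1 of 6 (7.77 to 8.02 and 8.27 to 8.59) and smooth muscle and pericyte markers in 2 of 6 (7.18 to 7.41 and 7.87 to 8.32). Of 6 lymphocyte markers 4 fell (7.18 to 7.35 and 6.45 to 6.79), but none passed after centring each array on its median, where their median change went from -0.54 to -0.21. Of 6 brown fat markers 1 rose (6.71 to 6.89 and 7.40 to 8.18). Set against the housekeeping mean, the median change was 1.66 for adipocyte and 0.31 for endothelial markers, but -0.88 for macrophage, -0.81 for fibroblast, -0.64 for smooth muscle and pericyte and -0.40 for brown fat markers. No detection calls were available, so no marker could be called absent. The part of these cell types in the peroxisomal changes was not tested.

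Skeletal muscle markers differed between KO-labelled arrays. None of 10 passed, with a mean of 6.92 to 6.94 on WT-labelled arrays and of 8.75, 10.45 and 6.82 on KO 1, KO 2 and KO 3. On KO 3 this mean was not above the WT-labelled arrays, but Mylpf was (6.26 against 6.12, 6.14 and 6.08). Of the 31 peroxisomal genes 25 were above all WT-labelled values on KO 3, against 21 on KO 1 and 26 on KO 2. The 21 genes whose groups separated upward enter all of these counts by definition. The same share over all probe sets was not determined for single arrays, so these counts have no background beside them. The part of muscle RNA in the peroxisomal changes was not tested. The median of the 31 genes above their WT-labelled mean was 0.26, 0.56 and 0.31 on KO 1, KO 2 and KO 3. With KO 3 as the sole KO-labelled array, Ehhadh differed by 2.59, Phyh by 1.73, Scp2 by 1.66, Abcd2 by 1.08, Ech1 by 0.99, Pex16 by 0.90, Abcd3 by 0.79 and Pex13 by 0.73. None passed there (adjusted p between 0.0853 and 0.195, limma, with KO 3 assumed to vary like the WT-labelled arrays), with 12 of the 31 genes at an unadjusted p under 0.05.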

How the data were processed

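The deposited table holds log2 signals per probe set for 6 arrays, 3 per group; values ran from 2.81 to 19.93. Per the labels, total RNA was biotinylated with a GeneChip WT pico kit, and Transcriptome Analysis Console is the tool listed in the submitters' processing notes. For background, normalization and summary, the steps were not given in the sources used here, and neither are detection calls or scan dates, so no batch could be examined. Array medians differed (6.47 to 7.02).

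Of 65956 probe sets, 30604 had exactly 1 gene symbol in GEO's platform annotation, 2146 several and 33206 none; symbols were updated through RefSeq (GRCm38.p6). All probe sets were fitted with limma 3.58.1 (R 4.3.3; lmFit, eBayes, genotype as the only term), with Benjamini-Hochberg adjustment and a threshold of 0.05. The procedure was tested on simulated data in which each value was drawn independently. These data had no shifts shared across an array, so the test cannot vouch for calls made where such shifts are present. The permutation test used scipy 1.17.1, and the plots matplotlib 3.10.9.

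All 31 genes are named. Of other peroxisomal genes the 8 called with the smallest p are named, of mitochondrial ones 4, and all measured regulators. From each marker list the 2 brightest could be named, and only Fabp4 was, the lists being given by counts and means. Members and lists were chosen with earlier results of these data known. Some items are not reported here. Alternatives covered normalization, centring, housekeeping scaling, dim probe sets, variance prior, array weights, the replicate block, annotation, threshold and each array left out. KO 3 alone against WT was added after the muscle values were seen. The number of arrays limits precision. The labels call the samples biological replicates without saying that each is a separate mouse.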

Additional observations from a re-analysis of the deposited data

How the results depend on the processing

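Ehhadh, Scp2, Phyh, Pex13, Pex16, Abcd3 and Ech1 passed under every alternative that kept all arrays, except that Pex13, Pex16, Abcd3 and Ech1 did not pass relative to the housekeeping mean. Abcd2 did not pass after quantile normalization (adjusted p = 0.0514). Relative to the housekeeping mean, 4 of the 31 genes were called higher and 15 lower, 4 and 17 of the other peroxisomal genes, and 853 and 58420 probe sets. There the median of the 31 genes was -0.69, and these changes turned sign: Pex3 -0.27, Pex16 -0.026, Pex5 -1.03, Pex7 -0.96, Pex13 -0.28, Pex2 -0.999, Pex10 -0.94, Pex6 -0.82, Pex11a -0.53, Pxmp2 -0.83, Abcd3 -0.14, Acox3 -0.76, Hsd17b4 -0.23, Acaa1a -0.86, Acaa1b -0.86, Amacr -1.05, Decr2 -0.59, Pecr -0.69, Gnpat -0.27, Agps -0.93, Far1 -0.66 and Crot -0.82. The median of the 31 genes was 0.65 after quantile normalization, 0.71 after centring and 0.79 over the 22 left without dim probe sets (mean under 6.83). Quantile normalization left 4032 probe sets called higher and 2212 lower, and centring 5146 and 3259, with 14 of the 31 genes higher after centring. Under both, Pex14 (0.30 each) and Pex26 (0.12 and 0.11) turned positive. Without dim probe sets 2 other peroxisomal genes were called lower. With trend and robust, and with array weights, 1 of the 31, Acox2, was called lower. Array weights gave 15 and 4 other peroxisomal genes and 17432 lower probe sets. With single-symbol probe sets only, and with a gene's probe sets averaged, 14 of the 31 were called higher and 1 lower. In both, 6 other peroxisomal genes were called lower, and in the first 3623 probe sets were called higher and 6642 lower. These 2 settings test fewer probe sets, so the adjustment is over fewer. At a threshold of 0.1 the counts were 15 and 1, 16 and 6, and 5902 and 24774. Leaving out each array gave 0 to 10 of the 31 called higher, 0 to 11 of the other peroxisomal genes, 0 to 3469 probe sets higher and 0 to 10697 lower. Estimates near 0 crossed it, within -0.023 to 0.12 for Pex2, -0.068 to 0.0067 for Pex14, -0.027 to 0.19 for Pex7, -0.028 to 0.067 for Pex5 and -0.0033 to 0.045 for Amacr. With KO 3 alone 0 of the 31, 0 of the other peroxisomal genes and 0 probe sets were called in either direction, with 19275 probe sets at an unadjusted p under 0.05, and Amacr stood at -0.0033. Where no value shows the cause of such a move, the cause was not tested. With the replicate block 9 of the 31 were called higher and 0 lower. Same-numbered arrays correlated in their deviations at 0.002, 0.205 and 0.139. KO 2 and KO 3 correlated best with the WT-labelled array of their own number, and KO 1 with WT 3 (0.171). These values cannot decide whether same-numbered arrays were paired, because deviations from a mean of 3 arrays depend on each other.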

Other observations

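Among the other peroxisomal genes, 8 encode enzymes of amino acids, hydroxy acids, urate and bile acids that are known mainly from liver and kidney. These were grouped after their values were seen. None of Dao, Ddo, Hao1, Hao2, Agxt, Uox, Baat and Pipox passed limma's test, and 5 read at adjusted p between 0.0549 and 0.105. The KO-labelled values lay all below the WT-labelled ones in 6 of the 8, against 44.9% of all probe sets, with a median change of -0.37, equal to that of all probe sets to 2 decimals. The mean log2 signal of the 8 lay between 6.39 and 6.46 under the WT label and between 5.95 and 6.18 under the KO label. After centring each array on its median the median change of the 8 was -0.04.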
